A study of Mus musculus with 7 samples.

Results

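The expression of 9 genes that are used in the brain as markers of blood-derived monocytes and of macrophages at the tissue borders (Lyz2, Ccr2, Ly6c2, F13a1, Ms4a7, Mrc1, Cd163, Lyve1 and Arg1) was examined in endpoint mouse gliomas. The genes were taken by name from a table of 19257 genes, all 9 were found, and 8 of them were among the 14782 genes with enough signal to be tested. Tumors had been induced by in utero electroporation of a CRISPR-Cas9 construct against tumor suppressor genes that include Trp53 and Nf1, a combination called 3xCR here and spelled 3xCr in the labels. All 7 libraries share this construct, which was used in animals of CD-1 and C57BL/6 background. The 3xCR group (genotype control in the labels, replicates 2, 3 and 4) carried it without the added glypican, and the GPC6 group (replicates 1 to 4) also overexpressed GPC6, a heparan sulfate proteoglycan, from a piggyBac transposon. Tumor tissue was taken under fluorescence guidance and sequenced as bulk RNA, so each library mixes tumor cells with every other cell of the piece. The labels call the tissue brain and the cell type neural, give no batch, age or sex for a library, and include no tumor-free brain. Neuron genes were present in every library, as the sums given with the other cell type markers show. The methods describe the libraries as biological replicates and do not say which background each came from.

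Microglia settle in the brain before birth and renew themselves there, whereas monocytes arrive from the blood and mature into macrophages inside a tumor. Circulating classical monocytes carry the surface protein LY6C, use the chemokine receptor CCR2 to leave the bone marrow and to enter inflamed tissue, and contain lysozyme. Border macrophages live in the meninges, around vessels and in the choroid plexus, and are recognised by the mannose receptor (Mrc1), the hemoglobin scavenger receptor (Cd163) and, in a subset, the hyaluronan receptor LYVE1. Ms4a7 is low in homeostatic microglia and higher in border macrophages and in monocyte-derived macrophages of gliomas, and arginase 1 is a marker of suppressive or repair-associated tumor macrophages.

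Depth ranged from 7197692 to 18879762 reads on genes per library, with a median of 10566182. A count of 3 reads, taken as the limit of detection for counting error only, corresponded to 1.64 to 4.64 normalized counts, the unit of all levels given here unless stated otherwise (reads divided by a size factor per library). The overexpressed gene itself, Gpc6, stood at 217, 226 and 126 in the 3xCR libraries (replicates 2, 3 and 4, the order used throughout) and at 675, 263, 3434 and 5084 in the GPC6 libraries (replicates 1 to 4). Every GPC6 library was above every 3xCR library, and GPC6 replicate 2 was close to them. A pair of libraries stood apart from the rest. Replicate 4 of 3xCR held a sum of 47142 over 7 leptomeningeal fibroblast genes and of 3133 over 5 B cell genes, where no GPC6 library exceeded 4975 and 190. In GPC6 replicate 1 the sum of 8 proliferation genes was 530, while the other 6 libraries had 4318 to 11809, and the sum of 8 neuron genes was 57333. The neuron sum was next highest in GPC6 replicate 3, at 28116.

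No gene of the 9 was called different between GPC6 and 3xCR tumors at an adjusted p below 0.05. In limma on log2(normalized count + 1), 0 of the 8 tested members passed, beside 0 of 14782 genes (percent called 0). The smallest adjusted p over all genes was 0.730. The overexpressed Gpc6 was not called either (log2 fold change 2.85, limma unadjusted p 0.0197, adjusted p 0.730). A gene that was not called is therefore not shown to be unchanged. At an unadjusted p below 0.05 the members' count was also 0, where 4.66% of all tested genes passed (2.74% higher and 1.92% lower in GPC6). On the recovered reads edgeR called 0 members at either threshold, with a background of 0% adjusted and 6.7% unadjusted. DESeq2 on the same reads called 0 members adjusted (background 0.0609%) and 2 unadjusted, Ms4a7 and Ly6c2 (background 12.1%). With library weights in limma 0 members passed adjusted (background 13.3%) and 2 passed unadjusted, Lyz2 and F13a1 (background 34.5%). All 4 of these were lower in GPC6. The ranges of the 3 3xCR and the 4 GPC6 libraries overlapped for all 9 genes, whereas they did not overlap for 6.32% of all tested genes. The log2 fold change of GPC6 over 3xCR was below 0 for 7 of the 8 tested members, against 51.7% of all tested genes, and above 0 for 1 (background 48.3%). Its median was -0.41 over the members and -0.02 over all genes. That 7 rested on single libraries: it lay between 4 and 8 when each library was left out in turn, and was 1 when 3xCR replicate 4 and GPC6 replicate 1 were both left out, a fit added after the values were seen. In that fit Lyz2, Ms4a7 and Ly6c2 had log2 fold changes of 0.13, 0.26 and 0.077.

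**Figure D1:**
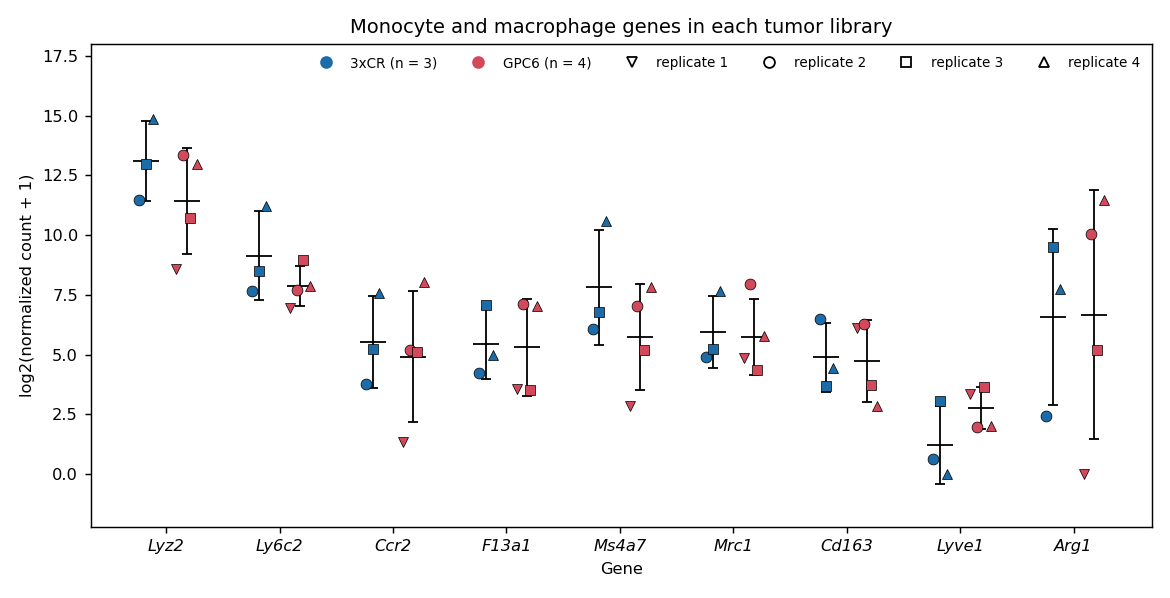
Level of each gene in each library as log2(normalized count + 1), on the vertical axis, for 3xCR (blue, n = 3) and GPC6 (red, n = 4), with the symbol giving the replicate number and bars giving the group mean ± SD. The groups overlap for every gene, and GPC6 replicate 1 is the lowest library for Lyz2, Ly6c2, Ccr2, Ms4a7 and Arg1.

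Lyz2, which encodes the lysozyme of monocytes, macrophages and neutrophils (chromosome 10, 117277331 to 117282321, minus strand, GRCm38), was the most abundant of the 9. It was measured at 2862, 8085 and 29595 in the 3xCR libraries, and at 388, 10503, 1705 and 8126 in the GPC6 libraries. The highest and the lowest library differed 76.3-fold, with 3xCR replicate 4 at the top, GPC6 replicate 1 at the bottom and the other 5 libraries of both groups interleaved. Group means were 13514 ± 14169 (SD, n = 3) for 3xCR and 5180 ± 4901 (SD, n = 4) for GPC6. The log2 fold change was -1.68 (SE 1.24), with a limma adjusted p of 0.735. It was -0.81 without 3xCR replicate 4 and -0.74 without GPC6 replicate 1, and -2.50 without 3xCR replicate 2.

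The neighbouring gene Lyz1, a lysozyme best known from Paneth cells of the gut, followed Lyz2 from library to library. Its levels were 194, 590 and 1890 in 3xCR and 43.3, 787, 119 and 568 in GPC6 (log2 fold change -1.45, limma adjusted p 0.742). Across the 7 libraries Lyz2 lay 8.96 to 15.7 times above Lyz1. The coding sequences of the pair are 95.1% identical, with 425 of 447 bases shared, 22 different, and 118 bases in the longest run without a difference. The rule by which the authors assigned reads that match both genes is not given in the sources used here, so the Lyz1 level is uncertain. The stretch with coding positions 43 to 132 of each gene is shown because it holds 13 of the 22 differences, which are in capitals.
Lyz2: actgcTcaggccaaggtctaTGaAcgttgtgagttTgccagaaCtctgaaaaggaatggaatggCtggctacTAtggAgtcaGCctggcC
Lyz1: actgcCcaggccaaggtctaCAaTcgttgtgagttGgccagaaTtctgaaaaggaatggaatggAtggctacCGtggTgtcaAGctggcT

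Ly6c2 encodes the LY6C protein of classical monocytes (chromosome 15, 75108158 to 75111970, minus strand). Its level was 203, 366 and 2394 in 3xCR, and 122, 205, 491 and 236 in GPC6. Replicate 4 of 3xCR was far above the rest, and the other 6 libraries ran from 122 to 491 with the groups mixed. Means were 988 ± 1220 (SD, n = 3) and 264 ± 159 (SD, n = 4), and the log2 fold change was -1.27 (SE 0.83; limma adjusted p 0.730). Leaving out 3xCR replicate 4 gave -0.23, and leaving out 3xCR replicate 2 gave -2.01 (limma unadjusted p 0.0438, adjusted p 0.574).

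Ly6c1 lies beside Ly6c2 and is expressed by endothelial cells of the brain as well as by leukocytes. Its level was 254, 702 and 1185 in 3xCR and 379, 186, 510 and 500 in GPC6 (log2 fold change -0.70, limma adjusted p 0.746). Like its neighbour it was highest in 3xCR replicate 4. It was lowest in GPC6 replicate 2, whereas Ly6c2 was lowest in GPC6 replicate 1. The ratio of Ly6c2 to Ly6c1 was 0.801, 0.521 and 2.02 in 3xCR and 0.322, 1.11, 0.963 and 0.471 in GPC6, and was above 1 in 3xCR replicate 4 and GPC6 replicate 2. The coding sequences are closer still than those of the lysozymes, with 387 of 396 bases identical (97.7%), 9 differences and a longest identical run of 188 bases, and reads could be split between them. The first 90 coding bases are shown because they hold 6 of the 9 differences, in capitals.
Ly6c2: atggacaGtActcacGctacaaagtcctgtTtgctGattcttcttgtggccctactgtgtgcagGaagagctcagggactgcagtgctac
Ly6c1: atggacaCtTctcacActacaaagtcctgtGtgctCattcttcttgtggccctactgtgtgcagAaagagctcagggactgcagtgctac

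Ccr2, the receptor through which monocytes are recruited (chromosome 9, 124101950 to 124113557, plus strand), was low and differed widely within both groups. Its level was 12.6, 37.2 and 191 in 3xCR and 1.55, 35.6, 33.7 and 259 in GPC6, the 1.55 being 1 read. Both groups thus had a single high library, 3xCR replicate 4 and GPC6 replicate 4, and GPC6 replicate 1 lay under the limit of detection. Means were 80.1 ± 96.5 (SD, n = 3) and 82.5 ± 119 (SD, n = 4). The log2 fold change was -0.61 (SE 1.53; limma adjusted p 0.914), and its sign turned when 1 library was left out, to 0.41 without 3xCR replicate 4 and to 0.58 without GPC6 replicate 1.

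The ligands of CCR2 were present in every tumor. Ccl2, the best known of them, was measured at 113, 523 and 1117 in 3xCR and at 54.1, 101, 659 and 319 in GPC6 (log2 fold change -1.13). Ccl7 and Ccl12 had log2 fold changes of -1.02 and -1.21. These 3 ligands were lowest in GPC6 replicate 1 and highest in 3xCR replicate 4, but GPC6 replicate 4, the library with the highest Ccr2 level, was not their highest library within the GPC6 group.

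F13a1 encodes the A chain of coagulation factor XIII, which monocytes, some tissue macrophages and platelets contain (chromosome 13, 36867178 to 37050244, minus strand). Its level was 18.1, 135 and 30.4 in 3xCR and 10.8, 138, 10.6 and 129 in GPC6. The libraries fell into a high set of 129 to 138, made of 3xCR replicate 3 and GPC6 replicates 2 and 4, and a low set of 10.6 to 30.4 with the other 4. Means were 61.1 ± 64.2 (SD, n = 3) and 72.1 ± 71.0 (SD, n = 4), and the log2 fold change was -0.13 (SE 1.16; limma adjusted p 0.981). Unlike Lyz2 and Ly6c2, this gene was not high in 3xCR replicate 4. The sign turned to 0.70 without 3xCR replicate 3 and to 0.46 without GPC6 replicate 1 or replicate 3.

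Ms4a7, a membrane-spanning protein of macrophages (chromosome 19, 11321039 to 11336146, minus strand), had the largest fold change of the tested members. It was measured at 66.3, 110 and 1530 in 3xCR and at 6.18, 131, 35.5 and 226 in GPC6, where 6.18 corresponds to 4 reads. The order of the libraries was nearly that of Lyz2, with 3xCR replicate 4 highest and GPC6 replicate 1 lowest, 248-fold apart. Means were 569 ± 833 (SD, n = 3) and 99.9 ± 99.9 (SD, n = 4). The log2 fold change was -2.09 (SE 1.42; limma adjusted p 0.731). It was -0.70 without 3xCR replicate 4, -1.13 without GPC6 replicate 1 and -2.96 without 3xCR replicate 2.

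Mrc1, the macrophage mannose receptor (chromosome 2, 14229392 to 14332057, plus strand), was measured at 29.1, 37.2 and 203 in 3xCR and at 27.8, 249, 19.5 and 53.5 in GPC6. Again 1 library of each group was high, this time 3xCR replicate 4 and GPC6 replicate 2, and the other 5 lay between 19.5 and 53.5. Means were 89.8 ± 98.2 (SD, n = 3) and 87.5 ± 109 (SD, n = 4), with a log2 fold change of -0.21 (SE 1.00; limma adjusted p 0.960). The sign was positive without 3xCR replicate 4 (0.65), without GPC6 replicate 1 (0.085) and without GPC6 replicate 3 (0.25).

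Cd163, which takes up hemoglobin bound to haptoglobin (chromosome 6, 124304656 to 124330527, plus strand), had its own order of libraries. Levels were 89.3, 12.1 and 20.7 in 3xCR and 68.0, 76.1, 12.4 and 6.17 in GPC6. The 3 high libraries, 3xCR replicate 2 and GPC6 replicates 1 and 2, include the 1 that was lowest for Lyz2, and 3xCR replicate 4 was among the low ones. Group means were 40.7 ± 42.3 (SD, n = 3) and 40.7 ± 36.5 (SD, n = 4), and the log2 fold change was -0.14 (SE 1.05; limma adjusted p 0.975). It ran from -0.73 to 0.67 over the fits that left out 1 library, and was positive without 3xCR replicate 2 (0.67), GPC6 replicate 3 (0.19) or GPC6 replicate 4 (0.49).

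Lyve1, a hyaluronan receptor of perivascular and meningeal macrophages and of lymphatic vessels (chromosome 7, 110850607 to 110863239, minus strand), was at the edge of detection. It was measured at 0.548, 7.44 and 0 in 3xCR and at 9.27, 2.96, 11.5 and 3.09 in GPC6, which is 0 to 13 reads per library. With a mean of 4.98 it did not reach the minimum of 10 that a gene needed for testing. Means were 2.66 ± 4.15 (SD, n = 3) and 6.71 ± 4.36 (SD, n = 4), and the fit without that minimum gave a log2 fold change of 1.52 (SE 0.83; limma adjusted p 0.784). All 20 alternatives that gave a log2 fold change had it above 0, from 0.66 to 2.44. It was 2.44 without 3xCR replicate 3 (limma unadjusted p 0.00967, adjusted p 0.894) and 1.319 with the replicate number as a block (limma unadjusted p 0.0472, adjusted p 0.816). It was 0.90 without 3xCR replicate 4, and the adjusted p was at least 0.582 throughout.

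Arg1, arginase 1, which splits arginine into ornithine and urea (chromosome 10, 24915221 to 24927484, minus strand), varied more than any other member. Its level was 4.38, 728 and 217 in 3xCR and 0, 1059, 35.5 and 2815 in GPC6. The range of the 3xCR libraries lay inside that of the GPC6 libraries, and the highest library, GPC6 replicate 4, was at least 607-fold higher than GPC6 replicate 1, taken at its 3-read limit. Means were 317 ± 372 (SD, n = 3) and 977 ± 1320 (SD, n = 4). The log2 fold change was 0.11 (SE 2.85; limma adjusted p 0.993). Leaving out 3xCR replicate 2 turned it to -1.96, and leaving out GPC6 replicate 2 or 4 gave -1.02 or -1.49. It was 2.33 with GPC6 replicate 1 left out. The 3 libraries with most Arg1 (GPC6 replicates 4 and 2 and 3xCR replicate 3) were the same 3 that were high for F13a1.

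**Figure D2:**
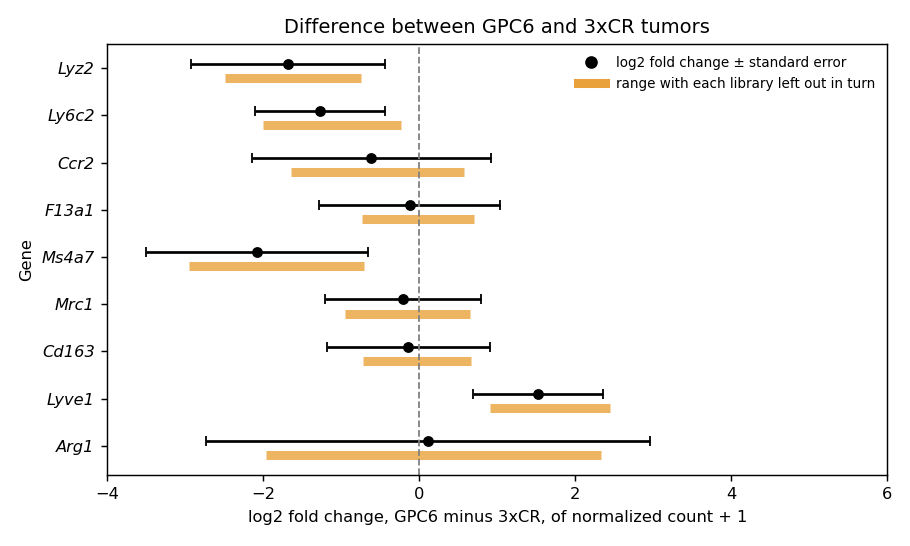
Log2 fold change of GPC6 over 3xCR for each gene on the log2(normalized count + 1) scale (black point with standard error), with an orange bar from the lowest to the highest value when each of the 7 libraries was left out in turn. The bars of Lyz2, Ly6c2 and Ms4a7 lie below 0 and that of Lyve1 lies above 0, while the bars of Ccr2, F13a1, Mrc1, Cd163 and Arg1 cross 0.

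Levels of different genes were compared as normalized counts per kilobase of exon. Lyz2 led with a median over the 7 libraries of 6144 per kilobase (295 to 22488), followed by Ly6c2 with 271 (141 to 2758), Arg1 with 147 (0 to 1906) and Ms4a7 with 63.4 (3.57 to 884). F13a1 (7.59, from 2.66 to 34.6), Mrc1 (6.92, from 3.63 to 46.3), Ccr2 (5.26, from 0.229 to 38.4) and Cd163 (4.62, from 1.38 to 19.9) followed at lower levels with overlapping ranges. Lyve1 was last, with a median of 1.07 (0 to 3.99). Neighbours in this order overlapped across libraries, and Lyz2 lay above Ly6c2 within every one of the 7.

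The members were among the genes with a wide spread across libraries. When all tested genes were ranked by the SD of log2(normalized count + 1) over the 7 libraries, the 8 tested members stood at percentiles from 90.9 (Ly6c2) and 91.3 (Mrc1) to 98.9 (Ms4a7) and above for Arg1, with a median of 96.0. The same median was 91.0 for the other monocyte genes and 90.1 for the other border macrophage genes described later. It was 71.4 for the 14 genes called pan-myeloid below and 54.5 for 11 microglia genes. It was as high in lists of other cell types, with 98.6 for choroid plexus, 96.7 for neurons, 96.4 for B cells, 92.9 for proliferation and 92.5 for leptomeningeal fibroblasts, so a wide spread was not particular to the members. These percentiles describe 7 tumors, and no test was attached to them. The members did not share 1 order of libraries. Lyz2, Ms4a7 and Ly6c2 were highest in 3xCR replicate 4, F13a1 and Arg1 in GPC6 replicates 2 and 4 with 3xCR replicate 3, and Cd163 in 3xCR replicate 2 with GPC6 replicates 1 and 2.

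**Figure D3:**
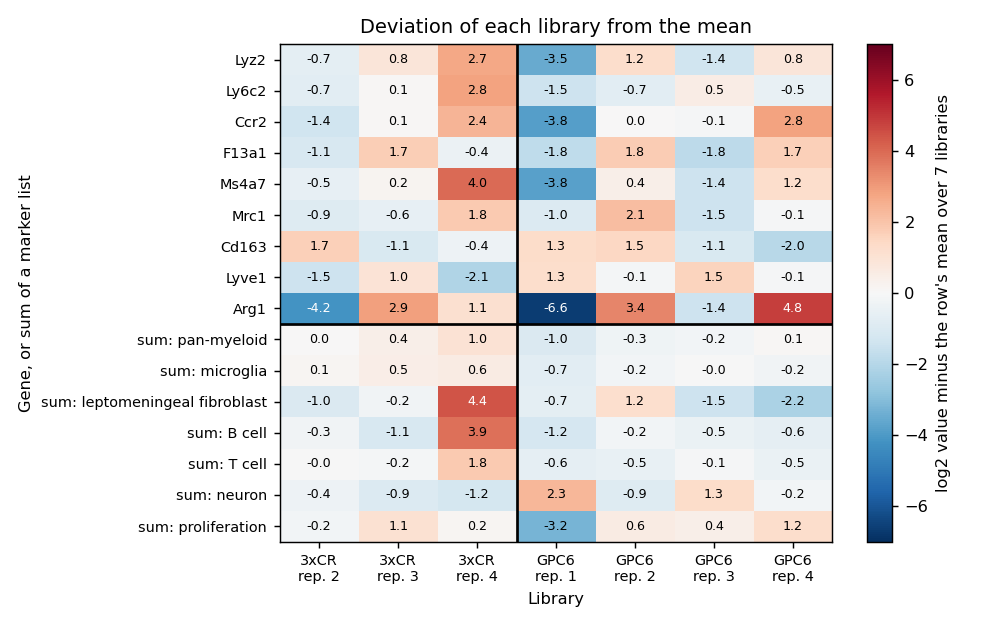
Deviation of each library (columns) from the mean over the 7 libraries, on the log2 scale, for the 9 genes (upper rows) and for the summed level of 7 marker lists (lower rows), with red above and blue below the mean. GPC6 replicate 1 is blue for Lyz2, Ccr2, Ms4a7, Arg1 and proliferation and red for neurons, and 3xCR replicate 4 is red for Lyz2, Ly6c2, Ms4a7, fibroblasts and B cells.

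In bulk tissue fewer cells of a type and less RNA per cell cannot be told apart. As a description of composition, each member was therefore also divided by the summed level of 14 genes, called pan-myeloid here (Ptprc, Itgam, Aif1, Csf1r, C1qa and others). This sum ran from 36526 to 73428 in 3xCR and from 17583 to 38560 in GPC6. C1qa, C1qb and C1qc made up much of it, with 23328, 12692 and 11638 of the 73428 in 3xCR replicate 4. In GPC6 replicate 1 they held 4563, 2946 and 2895 of the 17583. Per 1000 of these counts Lyz2 was at 78.4, 170 and 403 in 3xCR and at 22.1, 360, 53.8 and 211 in GPC6. The order of libraries was little changed by the division, since Lyz2 varied far more than the myeloid sum. Ms4a7 stood at 1.82, 2.31 and 20.8 in 3xCR and at 0.352, 4.50, 1.12 and 5.87 in GPC6, again with 3xCR replicate 4 highest. For Ccr2 the 4 GPC6 libraries gave 0.0879, 1.22, 1.06 and 6.72, and the 3xCR libraries 0.345, 0.785 and 2.60. Ly6c2 was at 5.57, 7.71 and 32.6 in 3xCR and at 6.94, 7.04, 15.5 and 6.11 in GPC6, so that outside 3xCR replicate 4 and GPC6 replicate 3 it lay between 5.57 and 7.71. Arg1 stood at 0.120, 15.4 and 2.95 in 3xCR and at 0, 36.3, 1.12 and 73.0 in GPC6, with the same high libraries as before the division. F13a1 followed it, at 0.495, 2.84 and 0.414 in 3xCR and 0.615, 4.74, 0.336 and 3.34 in GPC6. Mrc1 was at 0.795, 0.785 and 2.77 in 3xCR and at 1.58, 8.53, 0.616 and 1.39 in GPC6. GPC6 replicate 2 was the highest library for Mrc1 on this scale too. Cd163 was at 2.45, 0.255 and 0.282 in 3xCR and at 3.87, 2.61, 0.392 and 0.160 in GPC6, so that GPC6 replicate 1, the lowest library for Lyz2, was its highest. Lyve1 did not exceed 0.527 in any library. The groups overlapped for all 9 ratios.

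**Figure D4:**
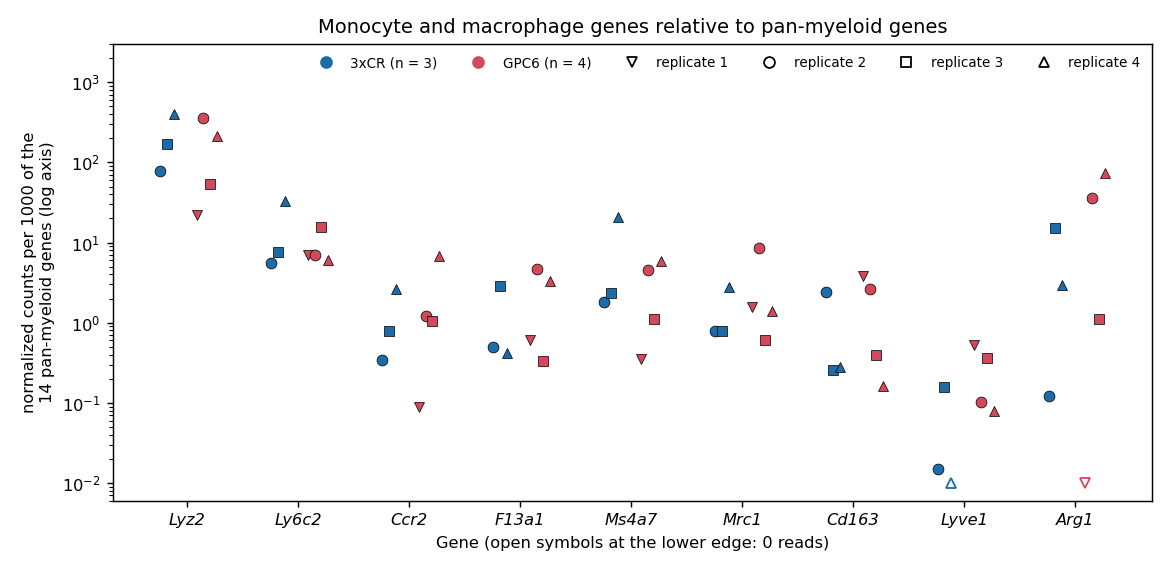
Normalized counts of each gene per 1000 normalized counts summed over 14 pan-myeloid genes (log axis), with 1 symbol per library, 3xCR in blue (n = 3) and GPC6 in red (n = 4), and open symbols at the lower edge for 0 reads. Lyz2 spans 22.1 to 403 and Arg1 0 to 73.0, and blue and red overlap for every gene.

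Other genes of the same cells had mostly negative log2 fold changes, and none passed the adjusted threshold. Of 16 other monocyte genes, all tested, 0 had an adjusted p below 0.05 and 15 had a log2 fold change below 0, with a median of -0.98. Among them Tgfbi, an extracellular matrix protein of monocytes and macrophages, had the highest mean normalized count. Log2 fold changes ran from -1.37 for Clec4e, a receptor for mycobacterial glycolipid, to 0.66 for Emilin2, a matrix glycoprotein. S100a4, a calcium-binding protein of motile cells, was the single gene of this list with an unadjusted p below 0.05 and was singled out after its value was seen (506, 520 and 1151 in 3xCR, 198, 485, 243 and 274 in GPC6, log2 fold change -1.25, limma adjusted p 0.730). Its groups did not overlap, although 485 and 506 are close.

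Of 18 other border macrophage genes 17 were measured and 13 tested; 0 passed and all 13 log2 fold changes were below 0, with a median of -0.52. Cd74, the invariant chain of MHC class II, had the highest mean normalized count. Siglec1 of sinusoidal macrophages was nearest to no change at -0.0076, and Cd38, an NAD-consuming ectoenzyme, was lowest at -1.71. Cd38 was at 3063 in 3xCR replicate 2, while the other 6 libraries held 124 to 655. Among further markers of border macrophages, the highest level in any library was 3.09 for Cd209f, 40.1 for Pf4, 49.4 for Folr2, 96.7 for Cbr2 and 332 for Siglec1. For these markers except Cd209f, and for Stab1 and Mgl2, this was in GPC6 replicate 4. The rest of the list was highest elsewhere. Clec4n, Clec12a, Colec12, Maf, Clec10a, Cd74 and H2-Aa were highest in 3xCR replicate 4, Cd36 and Ccl24 in 3xCR replicate 3, and Cd38 in 3xCR replicate 2.

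Of 20 genes for monocyte recruitment, 17 were tested, 0 passed and 16 had log2 fold changes below 0 (median -0.58). They ran from Ccl8, a chemokine of tissue macrophages (-2.51, with 6948 in 3xCR replicate 4 and 20.1 to 569 elsewhere), to Cx3cl1, a chemokine made mainly by neurons in the brain (1.08, with 5911 in GPC6 replicate 1). Vcam1, an adhesion molecule for monocytes, had the highest mean normalized count. Of 12 genes of arginine metabolism and alternative activation, 10 were tested and 0 passed, with 7 below 0 and a median of -0.50. Arg2, the mitochondrial arginase, had the lowest value (-1.03) and Pparg, a nuclear receptor for fatty acids, the highest (0.60). Of 7 genes that handle hemoglobin and heme, 6 were tested and 0 passed, with 5 below 0 and a median of -0.35. They ran from Blvrb, a biliverdin reductase, at -0.92 to Lrp1, the receptor for heme bound to hemopexin, at 0.08.

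The pan-myeloid genes and the genes of homeostatic microglia mostly had the same direction with less spread. Of the 14 pan-myeloid genes, 14 had log2 fold changes below 0 (median -0.85). At an unadjusted p below 0.05 in limma 4 were lower in GPC6, where 1.92% of all tested genes were. The same number was lower without overlap between groups, where 520 of the 14782 tested genes were. C1qa, a complement component, was at 10569, 13293 and 23328 in 3xCR and at 4563, 7016, 8593 and 9151 in GPC6. Of the 11 microglia genes, 9 were below 0 (median -0.58). Beside the same shares of all tested genes, 4 were lower at an unadjusted p below 0.05 and 3 were lower without overlap. Their sum ran from 10041 to 13741 in 3xCR and from 5584 to 8974 in GPC6, without overlap. No gene of either list passed the adjusted threshold (smallest limma adjusted p 0.730).

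Markers of other cell types moved with the members in single libraries. The summed level of 7 leptomeningeal fibroblast genes ran from 1100 to 47142 in 3xCR and from 481 to 4975 in GPC6, that of 7 T cell genes from 457 to 1838 and from 334 to 480, and that of 5 B cell genes from 95.8 to 3133 and from 94.3 to 190, with the highest value of each list in 3xCR replicate 4. This was also the highest library for Lyz2, Ly6c2 and Ms4a7. The sum of 8 neuron genes ran from 4919 to 8901 in 3xCR. In GPC6 replicates 1 to 4 it was 57333, 6188, 28116 and 10044, so that replicate 3 as well as replicate 1 was far above every 3xCR library. Neutrophils also contain Lyz2 transcripts. Of 10 neutrophil genes 8 were measured and 3 tested. Csf3r, the granulocyte colony-stimulating factor receptor, which microglia and monocytes can also express, was at 423, 444 and 523 in 3xCR and at 198, 311, 338 and 331 in GPC6, without overlap (log2 fold change -0.68, limma unadjusted p 0.0299 and adjusted p 0.730). S100a8 and S100a9 reached 34.0 and 32.9 and Mmp8 17.5, each highest in GPC6 replicate 4, while the granule genes Camp and Ngp had at most 2.66 and 1.55. The part of fibroblast, lymphocyte, neutrophil and neuron content in the results for the members was not tested.

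The genes whose pattern across the 7 libraries was most like that of Lyz2, among 14781 others, were Lyz1 (Pearson r 0.996), Zbtb8os (0.992), Piezo2 (0.990), Swap70 (0.989) and Lsm14a (0.989), each with a Spearman rho of 0.964. For Mrc1 they were Vps4b (0.987), Kcnk13 (0.950), Tmco6 (0.946), Hspa13 (0.945) and Zcwpw1 (0.939), with rho from 0.714 to 1. These correlations are over 7 libraries that include both groups and are descriptions chosen as the highest of many. Apart from Lyz1 the genes named changed far less than the member they follow, such as Lsm14a with 872 to 1521 where Lyz2 ran from 388 to 29595.

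Promoter sequence was read for the members because Lyz2, Ms4a7 and Ly6c2 shared their highest library. RefSeq windows (GRCm38.p6) of 250 bases before to 50 bases after the start were given for 7 of the 9 genes, without Arg1 and Lyve1. The hexamer GGAAGT, the core bound by the myeloid factor PU.1, was found on either strand in 5 of the 7 (Lyz2, Ms4a7, Mrc1, Ly6c2 and F13a1), and in 26.5% of 27025 genes. Some genes had several windows. By window, 6 of the members' 10 held it, and 23.8% of all 32851. The letters TTGCNNAA, a C/EBP-type motif, were in 0 of the 7 and in 12.2% of genes. Both motifs were chosen after the sequences had been seen, so these shares are no test of enrichment. The hexamer was also in Mrc1 and F13a1, which were highest in GPC6 replicate 2. The stretches below hold the hexamer or its reverse complement in capitals, on the strand of the gene, and a match is a description of letters and not a binding site. Mrc1 is shown although its highest library was GPC6 replicate 2, and the matches in Ms4a7 and F13a1 are not shown.
Lyz2 (chr10:117282340-117282399, minus strand): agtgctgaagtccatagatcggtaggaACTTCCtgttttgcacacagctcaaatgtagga
Ly6c2 (chr15:75112045-75112104, minus strand): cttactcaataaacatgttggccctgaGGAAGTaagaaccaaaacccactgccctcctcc
Mrc1 (chr2:14229176-14229235, plus strand): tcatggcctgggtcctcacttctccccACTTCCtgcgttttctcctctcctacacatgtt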

How the data were processed

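Bulk RNA sequencing of 7 mouse glioma libraries (3 of 3xCR, 4 of GPC6) was used, with groups and replicate numbers taken from the sample labels. The authors aligned poly(A)-selected stranded reads to mm10 with STAR 2.5.0a, counted them per gene with Rsamtools and GenomicFeatures, and deposited a normalized signal per gene, which is counts divided by DESeq2 1.20.0 size factors on a linear scale. The rule for reads that match several genes and the strand setting of the counting are not given in the sources used here. Division by size factors assumes that most genes do not change and carries no correction for length. Of 19282 entries, 25 bore dates in place of names (0.254% to 0.361% of the reads) and were left out. All columns of the table were used (0 left unused). Whole reads were recovered from the deposited values, of which 100% lay within 0.01 of a whole read.

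A gene was tested where its mean over the 7 libraries reached 10 normalized counts, with limma 3.58.1 (R 4.3.3, mean-variance trend, two-sided, Benjamini-Hochberg over all tested genes) on log2(normalized count + 1), which understates the change of low genes. All fold changes are on that scale. The scripts were first tested on simulated data. Alternatives were other pseudocounts, minimum levels and scalings, no trend, library weights, a replicate block, edgeR 4.0.16 and DESeq2 1.42.0 on recovered reads, and leaving out libraries. The members and gene lists were chosen with earlier results of these data known, and the motif letters after the sequences had been seen. All members were named, together with the neighbours Lyz1 and Ly6c1 and the 5 genes most correlated with Lyz2 and with Mrc1. From each related list came the gene of highest mean normalized count and those with the lowest and highest log2 fold change. Other genes were named after their values were seen. Exon lengths (union over protein-coding transcripts) and coding sequences came from GENCODE M21 (GRCm38), promoters from RefSeq. Replicates are described as biological, and with no batch, strain or sex given per library these cannot be told apart from the group. Reads carry no molecular identifiers, so detection limits cover counting error only.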

Additional observations from a re-analysis of the deposited data

Results flagged for a closer look

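Among the 4 GPC6 libraries, 82 quantities were examined for a library far from the other 3 (by the gap to its nearest neighbour over the whole range, on the log2 scale), and 6 met this, where chance gives about 4.1. Of the members, Ly6c2 did so only relative to the pan-myeloid list, at 15.5 per 1000 of its counts in GPC6 replicate 3 against 6.11 to 7.04 in the others. GPC6 replicate 1 stood apart for 4 genes. Aif1, a calcium-binding protein of microglia and macrophages, was at 218 normalized counts against 688 to 842. Csf3r, the granulocyte colony-stimulating factor receptor, was at 198 against 311 to 338, and Cd79b, of the B cell receptor, at 13.9 against 40.8 to 45.3. Ttr, the transthyretin of choroid plexus, was at 11813 against 10.9 to 31.9. Pparg was at 4.94 in GPC6 replicate 2 against 24.8 to 31.9 in the other 3.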

How the results depend on the processing

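Over 21 alternatives, 3 of them chosen after seeing the data, no member reached an adjusted p below 0.05; the lowest was 0.0586 for F13a1 with library weights. Library weights called 1962 genes adjusted (13.3% of all tested) and 5105 unadjusted (34.5%). With them 2 members passed unadjusted (Lyz2 -1.93, F13a1 -2.64), and 20 related genes passed adjusted and 51 unadjusted. Arg1 became -3.03, Cd163 0.039 and Ly6c2 0.073. DESeq2 called 9 genes adjusted (0.0609%) and 1793 unadjusted (12.1%), with 2 members (Ms4a7 -2.50, Ly6c2 -1.89) and 30 related genes unadjusted. In edgeR 27 related genes passed unadjusted, beside 6.7% of all tested genes, and in limma 15, beside 4.66%. Counts of related genes are given here without their share of the related genes tested, so they are not a result about the lists. Ccr2 was 0.049 and 0.055, and F13a1 0.25 and 0.23, in DESeq2 and edgeR. A pseudocount of 0.5 gave Arg1 -0.10. Same-numbered samples did not deviate together (correlations -0.19, 0.12 and 0.30), and the replicate block gave 678 genes unadjusted and 4 members below 0 (Ccr2 0.58, Mrc1 0.085, F13a1 0.46). Without GPC6 replicates 1 and 2 (added), 902 genes and 6 related genes passed unadjusted and Ccr2 was 1.04. Without 3xCR replicate 4 and GPC6 replicate 1 (added), 197 genes and 7 related genes passed unadjusted and 1 member was below 0 (Lyz2 0.13, Ccr2 1.60, Ms4a7 0.26, Mrc1 0.95, Ly6c2 0.077, F13a1 0.22). Another added fit took as covariate the mean of log2(normalized count + 1) over the pan-myeloid genes, not their sum. All 14 of these genes had log2 fold changes below 0, so this covariate is not independent of the group. In that fit 405 genes (2.74% of all tested) and 2 members passed unadjusted (Ccr2 2.38, Arg1 4.95) and 2 members were below 0. Lyz2 was 0.56, Ms4a7 0.58, Mrc1 0.79 and F13a1 1.03. Leaving out 1 library gave 121 (without 3xCR replicate 4) to 1399 (without GPC6 replicate 2) genes unadjusted and 0 adjusted, 0 to 1 of the tested members unadjusted (Ly6c2 without 3xCR replicate 2), 4 to 8 members below 0, and 2 to 27 related genes. The log2 fold changes then ran from -1.65 to 0.58 for Ccr2, -0.95 to 0.65 for Mrc1, -0.73 to 0.67 for Cd163, -1.96 to 2.33 for Arg1 and -0.73 to 0.70 for F13a1. The causes were not tested. Low read numbers limit the precision of Lyve1 and, in GPC6 replicate 1, of Ccr2 and Arg1.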
